A study of Mus musculus with 4 samples.

Results

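The synaptonemal complex genes described here are the 8 genes of the deposited table named *Sycp1*, *Sycp2*, *Sycp3*, *Syce1*, *Syce2*, *Syce3*, *Tex12* and *4930447C04Rik*, out of 55820 loci, and they were chosen by name. The synaptonemal complex is the protein zipper that forms between homologous chromosomes during meiotic prophase. SYCP2 and SYCP3 build the axial elements, which run along each chromosome and become the lateral elements of the finished complex, SYCP1 forms the transverse filaments that bridge them, and SYCE1, SYCE2, SYCE3, TEX12 and SIX6OS1, the product of *4930447C04Rik*, assemble in the central element. In male mice these genes are switched on as spermatogonia enter meiosis, and mutants that lack any of these proteins do not complete synapsis.

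RNA was sequenced from whole testes of male C57BL/6J mice at P10 (postnatal day 10), with 2 control libraries and 2 from Mps1sKO mice. The Mps1sKO mice carried floxed *Mps1* alleles, and a *Stra8*-Cre transgene removed the gene in germ cells only, starting in early spermatogonia. The somatic cells of the testis therefore kept *Mps1* in both groups, and the exact genotype of the controls is not given beyond the word control. The libraries of a group are given as biological replicates, without saying how many mice each one holds.

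The libraries held between 23311689 and 28607746 counts. *Ttk*, the gene that encodes MPS1, was counted 750 and 940 times in control and 302 and 326 times in Mps1sKO testes, so its normalized level was 41.7% of control (log2 fold change −1.26, adjusted p = 0.0461 from edgeR). This value covers the whole gene, of which the deletion removes some exons, and all cells of the testis. Markers of germ cells (*Ddx4*, *Dazl*), Sertoli cells (*Sox9*, *Amh*) and Leydig cells (*Cyp11a1*) were found in every library, whereas the Sertoli gene *Rhox5* and the spermatid gene *Prm2* had at most 3 counts in any library. Levels below are CPM values (counts relative to the library total, after TMM scaling), fold changes are Mps1sKO relative to control, and each locus that passed edgeR's filter on low counts (20561 in all, including all 8 synaptonemal complex genes) was tested with edgeR's quasi-likelihood test, with p adjusted over all of them by the Benjamini-Hochberg method. With 2 libraries against 2, the smallest p of an exact permutation test is 0.333, so p-values come from the models fitted across all genes.

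The sequence before the start sites of the 8 genes is shown first, and a link between it and their levels was not tested. The genes lie on 8 different chromosomes and share no promoter. RefSeq promoters on GRCm38.p6 were matched for all 8, with 2 start sites each for *Syce2* and *Syce3*. The 250 bases before each start site were searched on both strands for CACGTG, the E-box bound by MAX and MGA, for GCGGGAA, an E2F site, for CNCCTCAG, the motif of STRA8 and MEIOSIN, and for TGACGTCA, the cyclic AMP response element. *Sycp1*, *Sycp3* and *Tex12* are printed as genes with an E-box close to the start, and *Syce1* as a gene with none of these motifs. Capitals mark the motif matches, and each sequence runs 5′ to 3′ along the gene and ends at the base before the start site.
*Sycp1*, chr3:102936101-102936350, minus strand: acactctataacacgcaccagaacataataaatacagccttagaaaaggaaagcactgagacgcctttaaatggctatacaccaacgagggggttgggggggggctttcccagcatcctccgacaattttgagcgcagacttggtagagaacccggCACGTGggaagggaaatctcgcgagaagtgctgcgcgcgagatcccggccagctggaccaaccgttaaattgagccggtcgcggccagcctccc
*Sycp3*, chr10:88459337-88459586, plus strand: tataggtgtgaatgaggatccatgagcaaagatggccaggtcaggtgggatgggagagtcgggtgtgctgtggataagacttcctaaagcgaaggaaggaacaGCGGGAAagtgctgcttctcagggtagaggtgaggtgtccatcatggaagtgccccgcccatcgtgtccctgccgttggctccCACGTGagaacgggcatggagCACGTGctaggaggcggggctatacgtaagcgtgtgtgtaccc
*Tex12*, chr9:50561269-50561518, minus strand: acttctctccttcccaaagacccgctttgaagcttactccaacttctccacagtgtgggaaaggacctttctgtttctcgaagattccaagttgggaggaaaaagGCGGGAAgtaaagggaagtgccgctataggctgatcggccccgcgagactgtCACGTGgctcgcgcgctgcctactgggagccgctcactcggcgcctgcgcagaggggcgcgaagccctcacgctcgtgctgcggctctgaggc
*Syce1*, chr7:140787855-140788104, minus strand: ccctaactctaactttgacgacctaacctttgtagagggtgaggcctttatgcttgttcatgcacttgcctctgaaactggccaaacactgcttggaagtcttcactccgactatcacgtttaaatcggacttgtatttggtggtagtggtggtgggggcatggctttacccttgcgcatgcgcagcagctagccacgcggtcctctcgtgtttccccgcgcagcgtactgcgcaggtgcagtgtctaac

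An E-box was present before a start site of 5 of the 8 genes, *Sycp1*, *Sycp3*, *Syce2*, *Tex12* and *4930447C04Rik*, and *Sycp3* carried a pair of them, beginning 64 and 43 bases before the start. In *Sycp1* and *Tex12* the E-box began 94 and 93 bases before the start, in *Syce2* it began 88 bases before the second start site, and in *4930447C04Rik* it lay farther out, at 171 bases. Of all 32851 RefSeq promoters, 6.02% held this motif within the same 250 bases, as did at least 1 promoter of 9.29% of the 13208 tested genes that have one in the table. The E2F motif was found in 3 of the 8 genes, *Sycp3*, *Syce2* and *Tex12*, against 7.46% of tested genes. In *Syce2* it overlapped the only match to the STRA8 and MEIOSIN motif among the 8, which 8.65% of tested genes held. All matches of *Syce2* lay before its second start site, 147 bases inside the annotated gene, and none before its first. The first bases after that second start were not found in a GENCODE M21 transcript of the gene. This was also so for the start of *Syce1*, which lies 2 bases outside the annotated gene, so the bases compared begin outside it. None of the 8 held the cyclic AMP response element, which was present in 2.76% of tested genes. The windows before *Sycp2*, *Syce1* and *Syce3* held none of these letters. A match says only that the letters are there. Across all tested genes, the median log2 fold change was −0.012 with an E-box and 0.002 without, and −0.022 with the E2F motif and 0.0025 without, so both medians lay near 0. The share of genes lower at an unadjusted p below 0.05 was 6.52% with an E-box and 5.56% without, 8.83% with the E2F motif and 5.39% without, and 7.27% with the STRA8 and MEIOSIN motif and 5.49% without, and these differences were not tested.

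**Figure D1:**
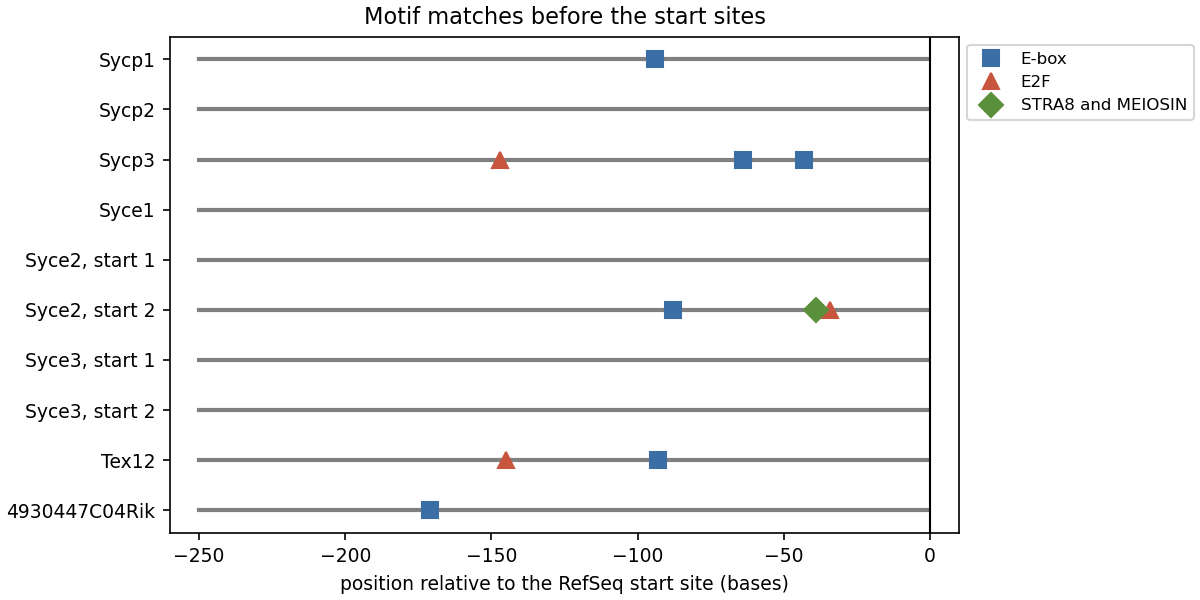
Matches to the searched motifs in the 250 bases before each RefSeq start site of the 8 genes, with the position relative to the start site in bases on the x axis and a line for each start site. Squares mark E-boxes, triangles E2F motifs and the diamond the STRA8 and MEIOSIN motif, and 5 of the 8 genes hold an E-box.

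The 8 genes stood in the Mps1sKO testes at 62.9% to 80.7% of their control levels, and for each of the 8 both Mps1sKO libraries lay below both control libraries. Over all tested loci, 21.1% lay entirely below control in the same way and 20.3% entirely above, where 0 of the 8 were found. The median log2 fold change of the 8 was −0.60, from −0.67 for *Tex12* to −0.31 for *4930447C04Rik*, beside a median of 0.00027 over all tested loci. In whole testes, fewer cells that express these genes and less RNA in each such cell cannot be told apart.

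At an adjusted p below 0.05, 0 of the 8 passed with edgeR, where 0.0292% of all tested loci were called lower, and 0 passed with limma-voom. With DESeq2 also 0 of the 8 passed, beside 0.195% of the loci with an adjusted p there, and the adjusted p-values of the 8 ran from 0.061 to 0.54. At an unadjusted p below 0.05 all 8 were lower with edgeR, and so were 5.37% of all tested loci. With DESeq2 all 8 were lower, beside 1.69% of 35262 loci that had not been filtered on low counts. The shares from edgeR and DESeq2 are therefore not comparable. The study's own cut-offs combine a fold change of more than 1.5 with p below 0.01 before adjustment. At these, 5 of the 8 were lower with edgeR (*Sycp1*, *Sycp2*, *Syce1*, *Syce3* and *Tex12*), beside 0.681% of all tested loci. DESeq2 gave 4 of the 8 at these cut-offs, without *Syce3*, beside 0.267% of the 35262 unfiltered loci. *Sycp1*, *Sycp2*, *Syce1* and *Tex12* belong to a list of downregulated genes drawn from the same libraries, so their counts are not independent evidence of the direction. The median log2 fold change of the other genes, *Sycp3*, *Syce2*, *Syce3* and *4930447C04Rik*, was −0.54. It comes from the same libraries and is not independent evidence of the direction either.

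The number past these cut-offs rested on individual libraries. Without control replicate 2 it was 0 of 8, beside 100 of 21324 tested loci, and the median log2 fold change was −0.40. Without Mps1sKO replicate 2 it was 1 of 8, beside 193 of 21495 loci, with a median of −0.49. Without control replicate 1, 7 of the 8 passed these cut-offs, beside 325 of 21477 loci, and 6 passed an adjusted p of 0.05 with edgeR, beside 126 loci. In each of these fits the lone library of a group was assumed to vary like the others. Every gene stayed lower in each of them, which the lack of overlap between the groups had all but fixed beforehand.

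The axial element genes come first. *Sycp2* lies on chromosome 2 from 178345293 to 178407685 (GRCm38, minus strand), its longest coding transcript has 44 exons in GENCODE M21, and it encodes a protein of 1500 residues that forms axial fibres together with SYCP3. Its counts were 2464 and 3616 in control against 1817 and 1702 in Mps1sKO testes, which is 91.5 and 125 CPM against 78.4 and 63.5 CPM. Both Mps1sKO values were below the lower control value, and the control libraries differed from each other by more than that gap. The log2 fold change was −0.61 (standard error 0.16, 95% interval −0.99 to −0.23, adjusted p = 0.494 from edgeR), and it was −0.37 without control replicate 2.

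*Sycp3*, on chromosome 10 from 88459569 to 88473236 (plus strand, 9 exons, 254 residues), encodes the axial element protein most often stained to follow meiotic prophase. Its levels were 31.7 and 39.7 CPM in control and 24.9 and 24.5 CPM in Mps1sKO libraries. The Mps1sKO libraries were nearly equal, and the lower control library was above both. The log2 fold change was −0.53 (standard error 0.13, 95% interval −0.84 to −0.23, adjusted p = 0.494 from edgeR). Of the 1264 exon bases of *Sycp3*, 660 are shared with exons of *Chpt1* on the opposite strand, and the strand setting of the counting is not given in the sources used here, so reads of the shared stretch may be missing from *Sycp3* or come from *Chpt1*. *Chpt1* itself had 75.3 and 75.5 CPM in control and 77.3 and 75.5 CPM in Mps1sKO libraries, which is a log2 fold change of 0.018.

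The transverse filament gene *Sycp1* lies on chromosome 3 from 102818499 to 102936100 (minus strand), and its longest coding transcript has 33 exons for a protein of 993 residues. Its product spans the space between the lateral elements. Its counts were 2805 and 4027 in control against 2112 and 1884 in Mps1sKO testes, or 104 and 139.6 CPM against 91.1 and 70.3 CPM. The groups did not overlap, but control replicate 1 stood nearer to Mps1sKO replicate 1 than to control replicate 2. The log2 fold change was −0.60 (standard error 0.17, 95% interval −0.99 to −0.21, adjusted p = 0.494 from edgeR), and without control replicate 2 it was −0.37. A processed pseudogene, *Sycp1-ps1*, had at most 1 count in any library, so it held almost none of the reads counted for this family.

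Among the central element genes, *Syce1* (chromosome 7 from 140777229 to 140787852, minus strand, 329 residues) encodes a coiled-coil protein that binds SIX6OS1 and SYCE3. It was measured at 38.4 and 46.3 CPM in control and at 29.3 and 26.3 CPM in Mps1sKO libraries. The values within a genotype were closer to each other than to the other genotype. Its log2 fold change was −0.61 with a standard error of 0.12 and a 95% interval from −0.90 to −0.32 (adjusted p = 0.494 from edgeR). The related gene *Syce1l* was counted separately, at 61 and 84 counts in control and 61 and 53 in Mps1sKO libraries.

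*Syce2*, on chromosome 8 from 84872111 to 84888221 (plus strand, 177 residues), and *Tex12*, on chromosome 9 from 50556819 to 50561325 (minus strand, 123 residues), encode partners that assemble into the fibres along which the central element extends. *Syce2* had 56.0 and 66.6 CPM in control and 42.9 and 40.9 CPM in Mps1sKO libraries, a log2 fold change of −0.55. It had the smallest unadjusted p of the 8, 0.0013 from edgeR, and an adjusted p of 0.494. *Tex12* was counted 412 and 602 times in control and 246 and 325 times in Mps1sKO testes, or 15.3 and 20.9 CPM against 10.6 and 12.1 CPM. It was the only one of the 8 for which Mps1sKO replicate 2 was above Mps1sKO replicate 1. Its log2 fold change of −0.67 (standard error 0.18, 95% interval −1.08 to −0.26, adjusted p = 0.494 from edgeR) was the lowest of the 8 with all libraries. It was −0.43 without control replicate 2 and −0.58 without Mps1sKO replicate 1, and in both of these fits *Syce3* was the lowest, at −0.60 and −0.84.

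*Syce3*, on chromosome 15 from 89390174 to 89410503 (minus strand), encodes the smallest protein of the set, 88 residues, which recruits the other central element proteins to SYCP1. It was also the gene with the fewest reads, 234 and 267 in control and 150 and 134 in Mps1sKO libraries, so counting error alone reached 8.64% of a value. Its levels were 8.69 and 9.26 CPM in control and 6.47 and 5.0 CPM in Mps1sKO libraries. The gap between the groups, 0.42 on the log2 scale from the lower control to the higher Mps1sKO library, was the widest of the 8. Its log2 fold change of −0.65 had a standard error of 0.18 and a 95% interval from −1.07 to −0.23 (adjusted p = 0.494 from edgeR).

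*4930447C04Rik*, on chromosome 12 from 72881109 to 72940774 (minus strand, 19 exons, 575 residues), encodes SIX6OS1, which binds SYCE1. It had 120.0 and 137 CPM in control and 111 and 96.7 CPM in Mps1sKO libraries, with a gap of 0.11 on the log2 scale between the groups, the narrowest of the 8. Its log2 fold change was −0.31 (standard error 0.11, 95% interval −0.57 to −0.05, adjusted p = 0.506 from edgeR). This interval overlaps those of the 7 other genes, and a difference between genes was not tested. The gene shares 192 exon bases with *Six6* on the opposite strand, which had at most 5 counts in any library. The RefSeq start site lies 23009 bases inside the gene as the table draws it.

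**Figure D2:**
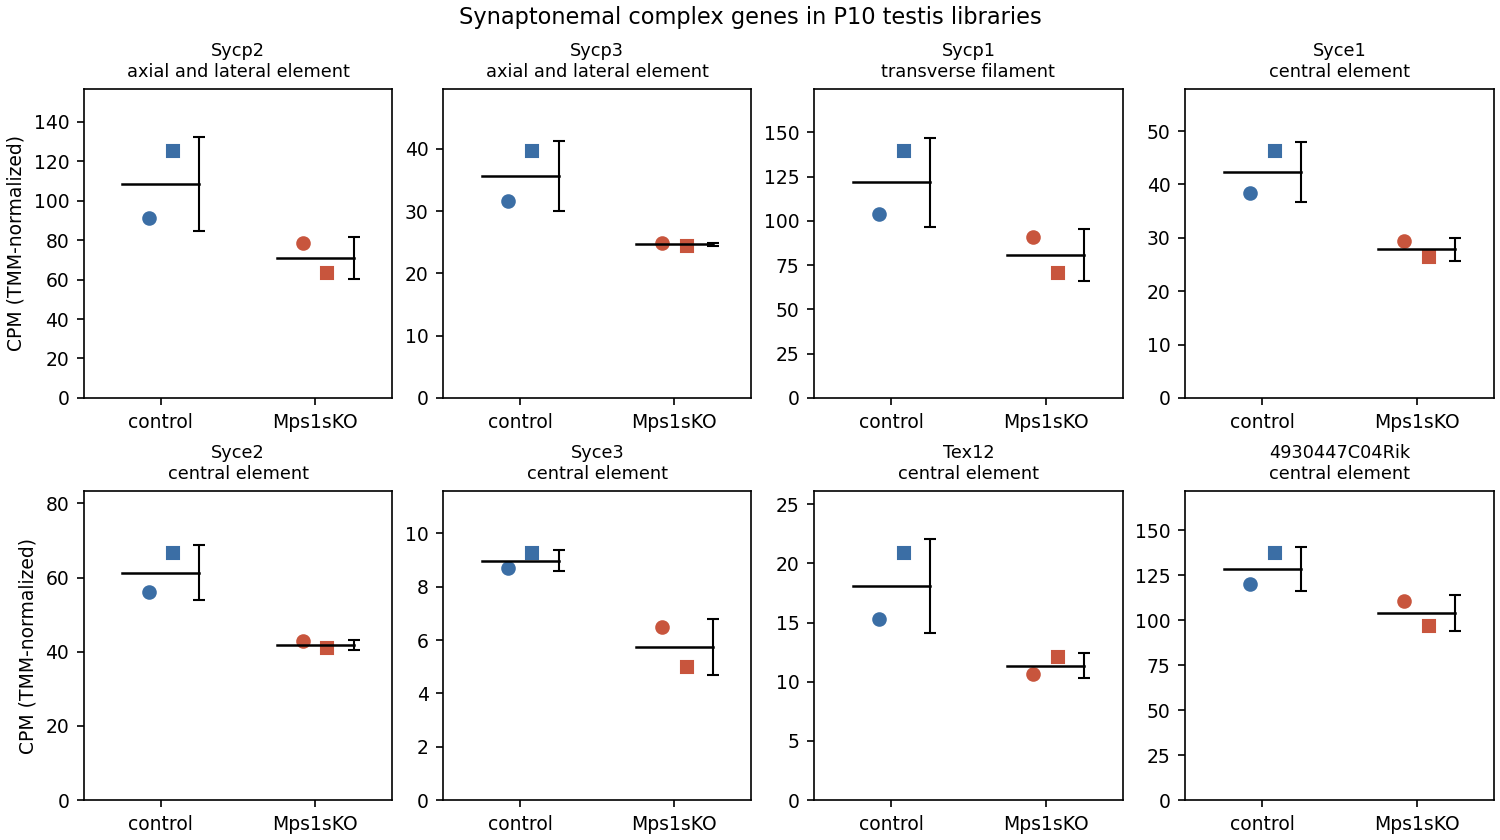
Level of each synaptonemal complex gene in each library, in TMM-normalized CPM on a linear axis from 0. Circles are replicate 1 and squares replicate 2 of control (blue) and Mps1sKO (red) testes, with the mean and SD of 2 libraries in black. In all 8 panels both Mps1sKO points lie below both control points.

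The 95% intervals of the 8 fold changes all lay below 0 and all overlapped each other. Grouped by position in the complex, the median log2 fold change was −0.57 for the axial element genes, −0.60 for the transverse filament gene and −0.61 for the 5 central element genes, and these medians lay closer to each other than the standard error of any 1 gene.

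**Figure D3:**
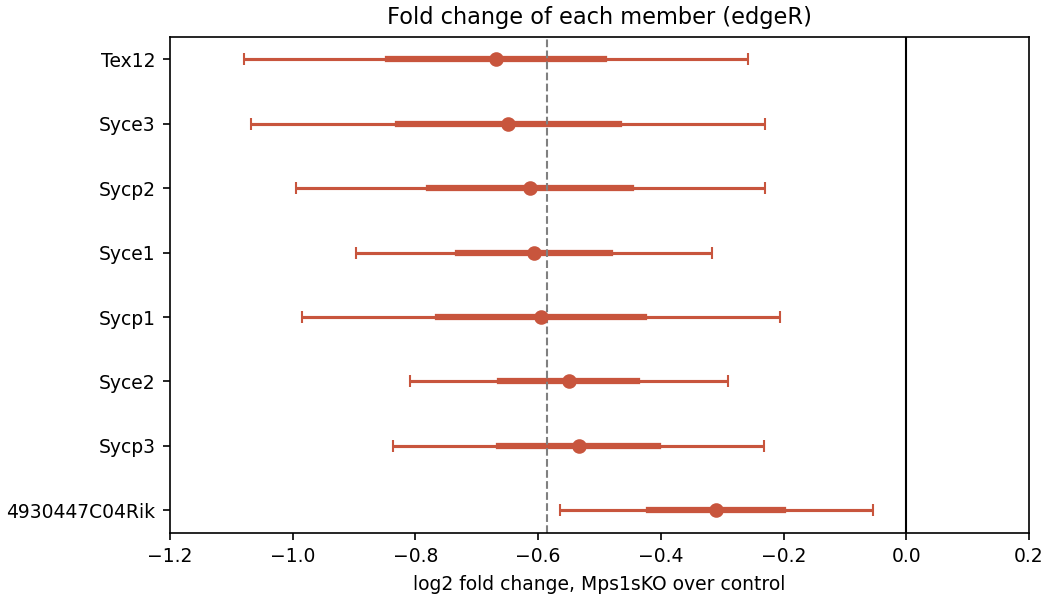
Log2 fold change of each gene, Mps1sKO over control, from edgeR, with thick bars for the standard error and thin bars for the 95% interval. The solid line is the median of all tested loci and the dashed line a fold change of 1.5 downwards, and 7 of the 8 genes lie between −0.67 and −0.53.

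The spread between libraries of 1 genotype was shared by most of the 8 genes. Control replicate 2 was above control replicate 1 for all 8, by 0.09 for *Syce3* to 0.45 for *Sycp2* on the log2 scale, with a median of 0.30. Among the 12755 tested loci with a mean of at least 5 CPM, 46.7% were higher in control replicate 2, and 3.85% were higher by at least the median difference of the 8. In the Mps1sKO libraries, replicate 2 was below replicate 1 for 7 of the 8, by a median of 0.18 over the set. The difference between the control libraries was wider than the gap that separated the genotypes for *Sycp1*, *Sycp2*, *Tex12* and *4930447C04Rik*, and narrower for *Sycp3*, *Syce1*, *Syce2* and *Syce3*.

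Levels can be compared between the genes only per length, for which the deposited FPKM values were used. In control testes the order from high to low was *Sycp1*, *Syce2*, *Syce1*, *Sycp3*, *4930447C04Rik*, *Sycp2*, *Tex12* and *Syce3*, with control means from 34.0 ± 7.05 FPKM (SD, n = 2) for *Sycp1* to 16.1 ± 0.747 FPKM (SD, n = 2) for *Syce3*. These similar levels per length came from genes whose exons add up to between 553 and 5981 bases. Of the neighbours in this order, only *Sycp3* and *4930447C04Rik* had control ranges that did not overlap, at 24.9 to 31.2 and 19.9 to 22.8 FPKM. Within the upper group of *Sycp1*, *Syce2*, *Syce1* and *Sycp3* the control ranges overlapped, although both control libraries gave these genes the same order. Within the lower group of *Sycp2*, *Tex12* and *Syce3* the ranges overlapped and the control libraries gave different orders. In Mps1sKO libraries, *Syce2* also lay above *Syce1*, and *4930447C04Rik* above *Sycp2*, without overlap. The FPKM of *Sycp3* carries the doubt about its shared exon bases. That of *4930447C04Rik* is divided by all 5981 exon bases of its 9 annotated transcripts, while its RefSeq start lies 23009 bases inside the gene. How much of this length is transcribed in these testes was not tested.

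In Mps1sKO testes the order was almost the same, with *Sycp3* and *Syce1* exchanged, and the means ran from 22.6 ± 4.09 FPKM (SD, n = 2) for *Sycp1* to 10.3 ± 1.86 FPKM (SD, n = 2) for *Syce3*. *Sycp1* made up 16.7% and 18.1% of the summed FPKM of the 8 genes in control and 18.2% and 15.7% in Mps1sKO libraries, and *Sycp2* made up 8.75% and 9.66% in control and 9.32% and 8.46% in Mps1sKO libraries. These shares overlapped between the genotypes. The share of *4930447C04Rik* was 11.4% and 10.6% in control and 13.2% and 12.9% in Mps1sKO libraries, so it was the higher in both Mps1sKO libraries.

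**Figure D4:**
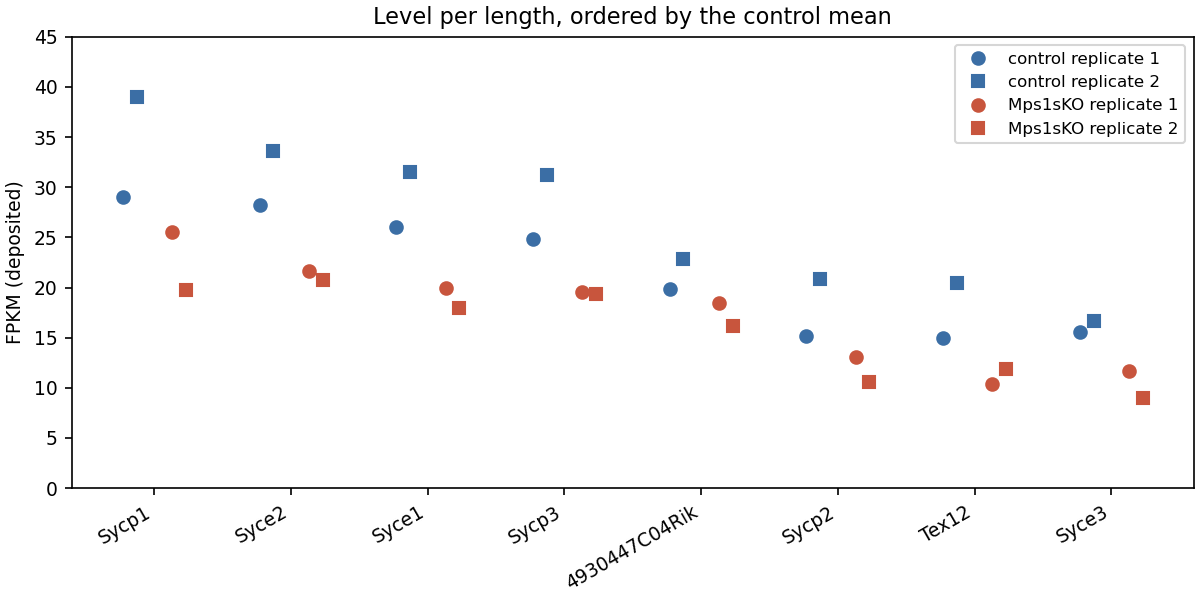
Deposited FPKM of each gene in each library, ordered by the control mean, with control libraries in blue and Mps1sKO libraries in red. *Sycp1* has the highest control mean, 34.0, and *Syce3* the lowest, 16.1.

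The summed level of the 8 genes was 466 and 585 CPM in control and 395 and 339 CPM in Mps1sKO libraries, which is 69.9% of control. A list of 12 general germ cell genes, such as *Ddx4* and *Dazl*, summed to 1842 and 2237 CPM in control and 1747 and 1299.8 CPM in Mps1sKO libraries, or 74.7% of control. All 12 of these genes were lower, 10 of them at an unadjusted p below 0.05 and 0 at an adjusted p below 0.05 with edgeR, with a median log2 fold change of −0.41. Both sums ranked the libraries in the same order, with control replicate 2 the highest and Mps1sKO replicate 2 the lowest. For each 100 counts on the germ cell list, the libraries held 25.3 and 26.1 counts on the synaptonemal complex genes in control and 22.6 and 26.1 in Mps1sKO testes. The groups overlapped on this scale, at 25.7 ± 0.611 and 24.4 ± 2.49 (SD, n = 2 each). The part of the germ cell content in the fold changes above was not tested.

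*Ddx4*, an RNA helicase of germ cells, had 196 and 221 CPM in control and 175 and 139 CPM in Mps1sKO libraries, and *Dazl*, an RNA-binding protein of germ cells, had 466 and 583 against 463 and 333 CPM. The log2 fold changes were −0.41 for *Ddx4* and −0.40 for *Dazl*, with adjusted p-values of 0.494 and 0.533 from edgeR. *Kit*, a receptor of differentiating spermatogonia, had 102 and 128 CPM in control and 114 and 82.3 CPM in Mps1sKO libraries, and the groups overlapped. Over the 9 genes of undifferentiated spermatogonia, 5 were lower, 3 of them at an unadjusted p below 0.05, and 4 were higher, 0 of them at that p, with a median of −0.15, and their sum was 406 and 361 CPM in control and 342 and 319 CPM in Mps1sKO libraries. The 5 genes of differentiating spermatogonia had a median of −0.28, and 3 of them were lower at an unadjusted p below 0.05.

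Sertoli cell genes lay on the other side. Of 12 listed genes 11 were tested, all of them were higher in Mps1sKO testes, 5 at an unadjusted p below 0.05 and 0 at an adjusted p below 0.05 with edgeR, and their sum was 6977 and 7126 CPM in control and 8767 and 8431 CPM in Mps1sKO libraries. *Sox9*, a transcription factor of Sertoli cells, had 156 and 123 CPM in control and 153 and 182 CPM in Mps1sKO libraries, which overlapped, and *Amh*, a hormone of immature Sertoli cells, ranged from 114 to 228 CPM in control and from 207 to 337 CPM in Mps1sKO libraries. *Cyp11a1*, the first enzyme of steroid synthesis in Leydig cells, had 125 and 123 CPM in control and 131 and 156 CPM in Mps1sKO libraries. Over the other marker lists, the median log2 fold change was 0.18 for Leydig, −0.12 for peritubular myoid, −0.13 for macrophage, 0.081 for endothelial and 0.17 for red blood cell genes, with 0 genes at an unadjusted p below 0.05 in any of these lists. Of 11 genes of pachytene spermatocytes and spermatids, 5 passed the filter, with a median of −0.23. Among them 4 were lower, 1 of these at an unadjusted p below 0.05 with edgeR, and 1 was higher. The part of these cell types in the levels of the synaptonemal complex genes was not tested.

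**Figure D5:**
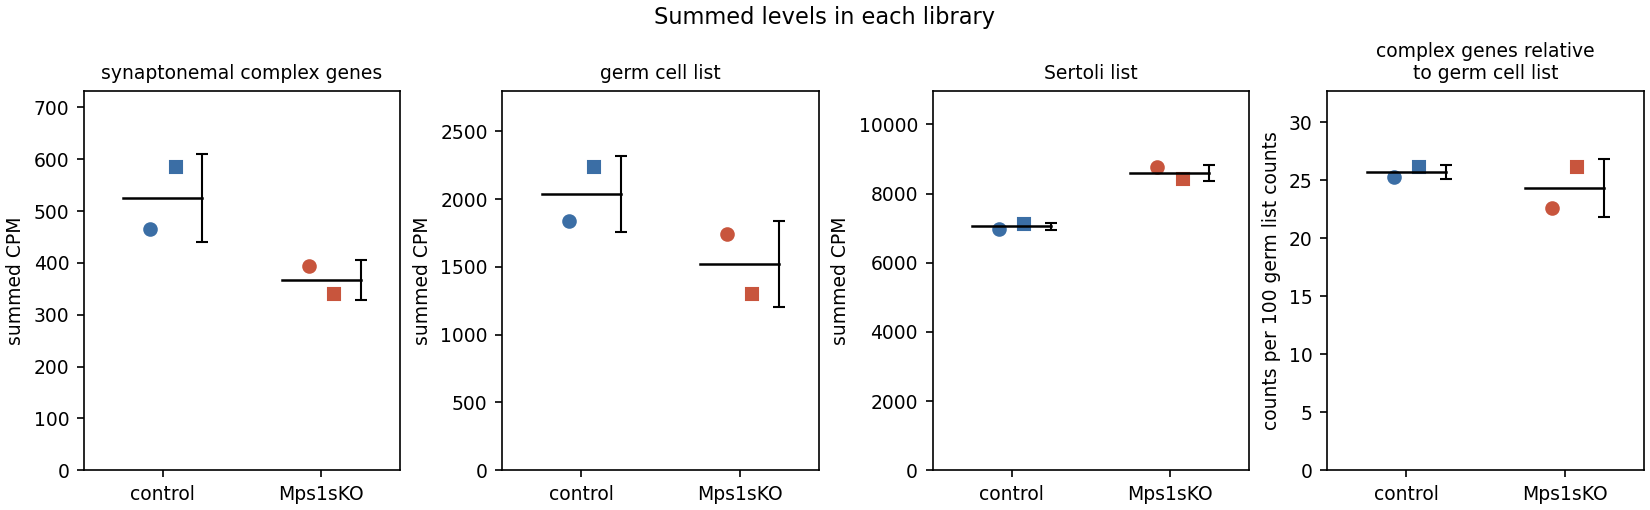
Summed CPM of the 8 synaptonemal complex genes, of the germ cell list and of the Sertoli list in each library, and the counts of the 8 genes for each 100 counts on the germ cell list. Circles are replicate 1 and squares replicate 2, with the mean and SD of 2 libraries in black. The first panels separate the genotypes, and the last does not, with 25.3 and 26.1 in control and 22.6 and 26.1 in Mps1sKO.

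The synaptonemal complex forms on chromosome axes that also hold cohesins and HORMA domain proteins, and its assembly depends on the breaks and exchanges of recombination. A list of genes of these axis, telomere and recombination partners had 32 genes in the table, of which 30 were tested. All 30 had a lower mean in Mps1sKO testes, 21 at an unadjusted p below 0.05 and 0 at an adjusted p below 0.05 with edgeR, and 25 lay entirely below control. Their median log2 fold change was −0.55, from −0.76 for *Spo11*, the enzyme that makes meiotic breaks, to −0.056 for *Sun1*, a nuclear envelope protein that anchors telomeres. Of the 32, 8 were chosen as downregulated on the same libraries. For each 100 counts on this list, the libraries held 46.7 and 48.6 counts on the synaptonemal complex genes in control and 43.7 and 45.7 in Mps1sKO testes.

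These partners include the cohesin subunits of the meiotic axis. *Stag3* had 143 and 184 CPM in control and 119 and 95.4 CPM in Mps1sKO libraries, and its log2 fold change, −0.61, was close to that of *Sycp1*. *Smc1b* and *Rad21l* had log2 fold changes of −0.56 and −0.53. *Rec8*, a kleisin subunit of meiotic cohesin, had 24.5 and 29.4 CPM in control and 29.2 and 22.2 CPM in Mps1sKO libraries. The groups overlapped, and *Rec8* had a log2 fold change of −0.071. Its 95% interval, −0.44 to 0.29, overlapped those of the other cohesin genes, and a difference between them was not tested. *Hormad1*, which marks axes that have not yet synapsed, was at −0.74 and its relative *Hormad2* at −0.44. None of them reached an adjusted p of 0.05 with edgeR, while *Stag3* did with DESeq2 (adjusted p = 0.038 from DESeq2).

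Genes that control transcription at meiotic entry were set beside them. *Stra8* and *Gm4969*, which encodes MEIOSIN, act as a pair of transcription factors on genes of meiosis, and *Meioc* encodes a partner of YTHDC2 that is needed for the meiotic programme. *Stra8* had 112 and 151 CPM in control and 86.7 and 65.5 CPM in Mps1sKO libraries, *Gm4969* had 36.5 and 52.0 against 27.0 and 22.3 CPM, and *Meioc* had 49.2 and 71.0 against 35.6 and 28.7 CPM. Their log2 fold changes, −0.79, −0.85 and −0.90, were lower than that of any of the 8 synaptonemal complex genes. A difference from those 8 genes was not tested. The adjusted p was 0.494 for each of *Stra8*, *Gm4969* and *Meioc* from edgeR. With DESeq2 the adjusted p was 0.0037 for *Stra8*, 0.0066 for *Gm4969* and 0.0016 for *Meioc*. All of them were chosen as downregulated on the same libraries. The other 7 genes of this list of 10, which include subunits of a repressor complex of meiotic genes, had 0 calls at an unadjusted p below 0.05, and the highest of them, *Pcgf6*, had 47.2 and 47.0 CPM in control and 51.2 and 50.04 CPM in Mps1sKO libraries. The median over the 10 genes was −0.075.

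The genes whose levels followed the mean profile of the 8 most closely were named by distance, as the Euclidean distance between log2(CPM + 0.5) profiles over the 4 libraries, each centred on its mean. Among 11829 other protein-coding genes with at least 5 CPM on average, the nearest were *Fam90a1b*, *Taf7l*, *Cebpb*, *Tdrkh* and *Emilin2*, at distances from 0.018 to 0.058. The 8 genes themselves lay between 0.051 for *Syce1* and 0.27 for *Tex12* from their own mean. *Taf7l* had 207 and 252 CPM in control and 164 and 146 CPM in Mps1sKO libraries, and *Cebpb* had 7.95 and 9.60 against 6.00 and 5.52 CPM. With 4 libraries such a distance describes a likeness and no more.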

How the data were processed

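RNA from whole testes at P10 was sequenced in 4 libraries, and the genotype given in the labels set the groups. The submitters' processing notes name HISAT2 2.0.5, featureCounts, DESeq2 1.16.1 and the build mm10. The authors deposited raw counts and FPKM values for 55820 loci in 1 table. The counts were not normalized, and the deposited FPKM values are scaled by gene length and library size. The strand setting is not given in the sources used here. The test was edgeR 4.0.16 under R 4.3.3 (filterByExpr, TMM, quasi-likelihood F test on genotype, two-sided), on 20561 loci. The standard error was taken as the log2 fold change over the square root of F.

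The 8 genes were taken by name. They, the gene lists, the motifs and the rule for named genes were chosen with earlier results of these data known. The rule takes the 8 genes, *Ttk*, defining markers, set partner genes with the extremes of their lists, and the 5 nearest profiles. *Chpt1*, *Six6* and the related copies were added after their values were seen. The lists are those of axis and synapsis partners, regulators of meiotic transcription, germ cells, undifferentiated and differentiating spermatogonia, pachytene spermatocytes and spermatids, and Sertoli, Leydig, peritubular myoid, macrophage, endothelial and red blood cells. Exons came from GENCODE M21, whose identifiers and coordinates equal those of 34965 of the 34990 annotated genes with counts, and promoters from RefSeq on GRCm38.p6. Counting intervals and errors cover counting error only. The alternatives were DESeq2 1.42.0, limma-voom (limma 3.58.1), other scalings, filters, dispersions and loci, a replicate block and each library left out in turn. The code was tested on simulated data. The study's qPCR, staining and blots were not analysed here.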

Additional observations from a re-analysis of the deposited data

How the results depend on the processing

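Each of the 8 genes stayed lower under all 13 alternatives (104 values, 0 reversed), and 92 of these kept their side of an adjusted p of 0.05. The other 12 passed it, which were 6 genes each in edgeR without the filter on low counts (where 251 of 35262 loci were called lower) and without control replicate 1 (126 of 21477). The number of the 8 genes at an adjusted p below 0.05 was thus 6 without the filter, and 0 to 6 with each library left out in turn. With each library left out, the number at the study's cut-offs lay between 0 and 7, against 5 with all libraries, the number at an unadjusted p below 0.05 between 6 and 8, and the median log2 fold change between −0.72 and −0.40. The number of all tested loci called lower at these thresholds also changed widely with the library left out. The counts of the 8 genes are therefore not comparable between those fits. All 13 alternatives used these same libraries, which did not overlap between the genotypes for any of the 8 genes. The direction could therefore hardly reverse in any of them. The median without control replicate 2, −0.40, moved by more than the spread between replicates. With the replicate number as a block, 2 of the 8 passed the study's cut-offs (100 of 20561 loci) and 0 an adjusted p of 0.05 (2 loci), with a median of −0.60. The labels give no shared litter or day for a number. Deviations of same-numbered libraries had a correlation of −0.24 over tested loci, and those of control replicate 1 and Mps1sKO replicate 2 had 0.24. With 2 libraries in a group these are the same value with its sign turned. A shared litter or day was therefore not tested. *Ttk* passed an adjusted p of 0.05 with DESeq2 (adjusted p = 7.3e-09 from DESeq2). From edgeR it also passed without the filter (1.1e-14), with DESeq2 size factors (0.048), library size only (0.039) and robust dispersion (0.030). It missed with at least 10 counts in every library (log2 fold change −1.27, adjusted p = 0.0573 from edgeR) and with limma-voom (−1.26, adjusted p = 0.0745). Other misses were annotated genes only (−1.26, adjusted p = 0.0509 from edgeR) and the replicate block (−1.26, adjusted p = 0.224 from edgeR). The log2 fold change of *Ttk* ran from −1.37 to −1.15 with each library left out. The cause of these changes was not tested, beyond the smaller number of libraries or the different set of loci in each fit. All 8 genes lay below control with FPKM values, DESeq2 size factors or library size only. The share of all loci that did so was counted only for TMM-scaled CPM. CPM per kilobase gave the same order of levels for 8 of 8. Depth limits *Syce3* most, with a counting error of up to 8.64% of a value, and with 2 libraries in a group the spread between replicates is known only roughly.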
